A study of Mus musculus with 2 samples.

Results

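The genes described here encode the chains of collagen types I, III and V, which build fibrils, and of type VI, which builds beaded microfilaments around cells. They were chosen as 8 gene symbols (Col1a1, Col1a2, Col3a1, Col5a1, Col5a2, Col6a1, Col6a2 and Col6a3), and all 8 were on the array, out of 8251 genes named there. They were represented by 14 of the 12422 probe sets that are not controls. A probe set is a group of short probes against 1 transcript, and it gives 1 intensity value per array.

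RNA was taken from 2 mouse mesoangioblast clones, D16 and D351, and hybridized to Affymetrix arrays labelled U74A, 1 per clone. Mesoangioblasts are vessel-associated mesodermal progenitors. D16 and D351 were both isolated from C57BL6 embryos at embryonic day 9.5, from dorsal aorta held in explant culture for 5 days. Single cells were then cloned on primary embryonic mouse fibroblasts that Mitomycin C had arrested, in RPMI with 20% fetal calf serum, and the clones were expanded on gelatin. No treatment or genotype separates the groups, and each group is a single clone. With 1 array per clone there was no replicate check and no test, and every difference below is a size measured between these arrays. In bulk RNA, fewer cells of a type and less RNA per cell cannot be told apart.

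Collagen chains are folded in the endoplasmic reticulum into triple helices, after hydroxylation of proline and lysine. The type I molecule holds alpha 1 and alpha 2 chains, encoded by Col1a1 and Col1a2, and type III holds the product of Col3a1 alone. Type V chains (Col5a1, Col5a2) enter type I fibrils and help to start and limit their growth. Type VI is assembled from the products of Col6a1, Col6a2 and Col6a3. Mesenchymal cells of the vessel wall and fibroblasts are known as main producers of these collagens.

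All 8 genes had higher levels in D351 than in D16, by 2.03-fold to 4.04-fold. Their median log2 ratio of D351 over D16 was 1.27, that is 2.40-fold, while the median of the 6096 genes that reached the intensity floor in one clone or both was -0.03. The floor, an intensity of 17.5, separates values taken as measured from those too low to order. At 2-fold or more, all 8 were higher in D351, where the share among the 6096 genes was 10.6% (645 genes). In the other direction 0 of the 8 passed 2-fold, against 8.84% of all genes (539). Among the 537 genes with a mean level at or above that of the dimmest member (520), the share at least 2-fold higher in D351 was also 10.6%, and the share at least 2-fold higher in D16 was 6.15%. Past 3-fold were 2 of the 8 (Col5a1 and Col6a2), against 4.15% of the 6096 genes, and past 4-fold 1 (Col5a1), against 2.28%. Each of the 14 probe sets exceeded the floor on both arrays.

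**Figure D1:**
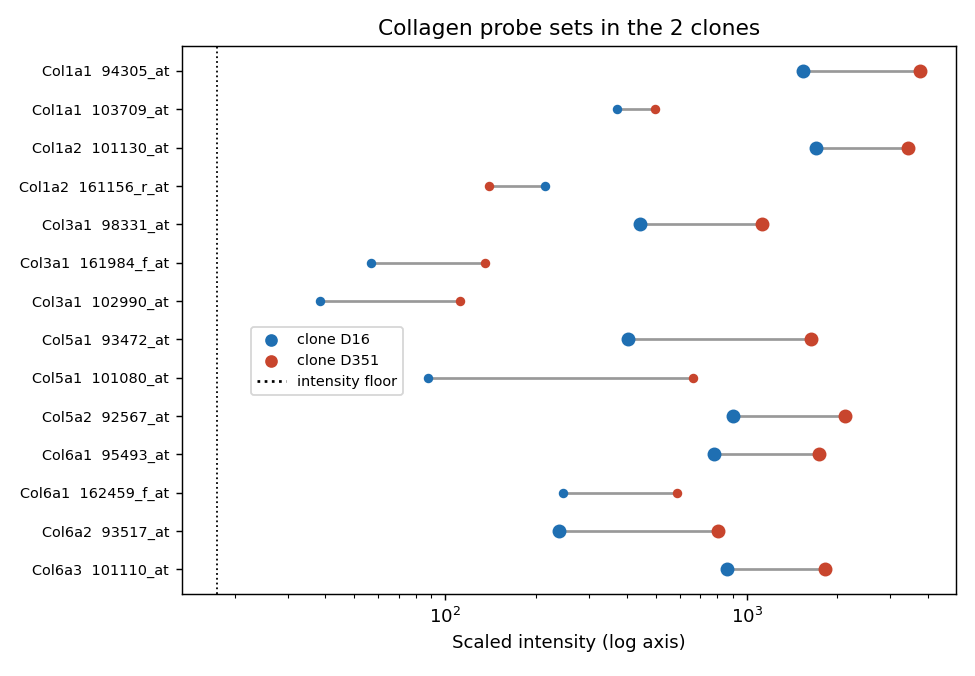
Scaled intensity (log axis) of each of the 14 collagen probe sets in clone D16 (blue) and clone D351 (red), 1 array each. Large points mark the brightest probe set of a gene, small points its other probe sets, and the dotted line the floor of 17.5. In 13 of the 14 probe sets the D351 point lies to the right, and in the Col1a2 probe set 161156_r_at it lies to the left.

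Col1a1, the alpha 1 chain of type I, measured 1538 in D16 and 3771 in D351 by its brightest probe set, 94305_at. This was a 2.45-fold higher level in D351 (log2 ratio 1.29). A further probe set, 103709_at, measured 372 and 496, a log2 ratio of 0.42. Both probe sets were higher in D351, but the log2 ratio of the dimmer one differed from that of the brighter by -0.88.

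Col1a2, the alpha 2 chain of type I, measured 1693 in D16 and 3438 in D351 by probe set 101130_at. Its ratio of 2.03 was the lowest of the 8 genes and lay just past 2-fold. Without the further scaling of the arrays its log2 ratio was 0.97, so that 7 of the 8 genes then passed 2-fold. Its other probe set, 161156_r_at, went the other way, with 215 in D16 and 139 in D351 and a log2 ratio of -0.62. The letter r in its name marks a set for which the array's designers relaxed some probe rules. When the probe sets of each gene were averaged, Col1a2 had a log2 ratio of 0.20 and Col1a1 0.85, and 6 of the 8 genes passed 2-fold.

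Col3a1, the chain of type III, measured 443 in D16 and 1128 in D351 by probe set 98331_at, a 2.54-fold higher level in D351. Its other probe sets were dimmer and gave similar ratios. Set 161984_f_at measured 56.8 and 136, with a log2 ratio of 1.26, and set 102990_at measured 38.3 and 112, with a log2 ratio of 1.55. All 3 probe sets of Col3a1 were thus at least 2-fold higher in D351.

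Col5a1, the alpha 1 chain of type V, had the largest ratio of the 8 genes. It measured 405 in D16 and 1636 in D351, a 4.04-fold difference, by probe set 93472_at. Its other probe set, 101080_at, measured 87.9 and 666, a 7.57-fold difference. Both probe sets therefore put D351 above D16, with log2 ratios of 2.01 and 2.92. Col5a2, the alpha 2 chain of type V, had 1 probe set, which measured 900 in D16 and 2120 in D351, a 2.36-fold higher level.

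Among the type VI genes, Col6a1 measured 780 in D16 and 1744 in D351 (2.24-fold), and its other probe set, 162459_f_at, measured 246 and 589 (log2 ratio 1.26). The letter f marks a set that can match related sequences. Col6a2 measured 238 in D16 and 803 in D351, a 3.37-fold higher level. Col6a3 measured 864 and 1822, a 2.11-fold higher level. Each of these genes was higher in D351 by every probe set it had, although Col6a2 and Col6a3 had only 1.

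To show the sequence context of genes that lie together on this scale, the 250 bases upstream of the annotated start are printed for the member with the largest ratio (Col5a1), the one with the smallest (Col1a2) and one from the middle of the range with a very different base composition (Col3a1). Sequences are from RefSeq, build GRCm38.p6, written 5′ to 3′ on the strand of the gene, which is the plus strand for all 3. Capitals mark matches on either strand to 4 short motifs. These are the CCAAT box, the GC box (spelled GGGCGG), the TATA box (spelled TATAAA) and a SMAD element (spelled CAGACA), which can bind SMAD proteins. The regions are chr2:27886175-27886424 for Col5a1, chr6:4505368-4505617 for Col1a2 and chr1:45311288-45311537 for Col3a1.
Col5a1: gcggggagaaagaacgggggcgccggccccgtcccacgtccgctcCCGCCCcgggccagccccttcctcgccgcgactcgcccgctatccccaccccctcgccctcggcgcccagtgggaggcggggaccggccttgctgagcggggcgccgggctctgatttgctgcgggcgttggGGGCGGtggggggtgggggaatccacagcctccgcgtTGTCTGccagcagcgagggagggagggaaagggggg
Col1a2: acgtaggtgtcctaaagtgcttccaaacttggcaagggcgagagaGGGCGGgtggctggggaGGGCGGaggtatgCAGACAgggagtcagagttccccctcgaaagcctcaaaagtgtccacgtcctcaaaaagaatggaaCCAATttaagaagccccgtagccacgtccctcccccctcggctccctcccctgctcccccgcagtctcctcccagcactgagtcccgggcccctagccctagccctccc
Col3a1: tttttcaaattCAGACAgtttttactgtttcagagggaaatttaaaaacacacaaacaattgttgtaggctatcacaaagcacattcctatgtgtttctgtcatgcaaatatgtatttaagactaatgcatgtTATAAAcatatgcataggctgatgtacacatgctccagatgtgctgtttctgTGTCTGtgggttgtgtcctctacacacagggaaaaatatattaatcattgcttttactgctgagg

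Of the 8 genes, 6 had a window in the table, from 250 bases before to 50 after the start, and Col6a2 had a pair of overlapping ones. Col1a1 and Col5a2 had none. Positions are counted from the start, with -1 for the last base before it, and give the leftmost base of a match. Over all 32851 windows in the table, the CCAAT box occurred in 37.4%, the GC box in 35.7%, the TATA box in 13.6% and the SMAD element in 21.0%. Col1a2 held the CCAAT box at -109 and, in reverse, at position 1, so that the latter lies past the printed stretch. It is shown here with its surroundings (chr6:4505606-4505635, match in capitals).
Col1a2: cctagccctcccATTGGtggagacgttttt

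Col1a2 also held the GC box at -205 and -188 and the SMAD element at -175. Col5a1 held the GC box at -205 (reverse) and -73 and the SMAD element in reverse at -36. Col3a1 held the TATA box at -117 and the SMAD element at -239 and, in reverse, at -65. Col6a2 held GC boxes and none of the other motifs, and the windows of Col6a1 and Col6a3 held none of the 4. No motif was thus found in all 6 genes. The GC content of the 300 bases was 75.0% for Col5a1, 61.0% for Col1a2 and 37.7% for Col3a1, with a median of 52.7% over all windows. These matches are descriptions of letters in the windows only.

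The 8 log2 ratios ran from 1.02 to 2.01, with an SD of 0.35 across genes. The spread between probe sets of the same gene was an SD of 0.52 over 806 genes with several measured probe sets. It includes dim sets and sets with letters such as r or f, so it also holds differences in probe design. Variation between arrays or between cultures of a clone is not part of it. The 5 genes of types I, III and V had a median log2 ratio of 1.29 and the 3 type VI genes one of 1.16. Of the 5195 genes measured in both clones, 1.41% had a higher ratio than Col5a1, 2.31% a higher one than Col6a2 and 9.22% a higher one than Col1a2.

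**Figure D2:**
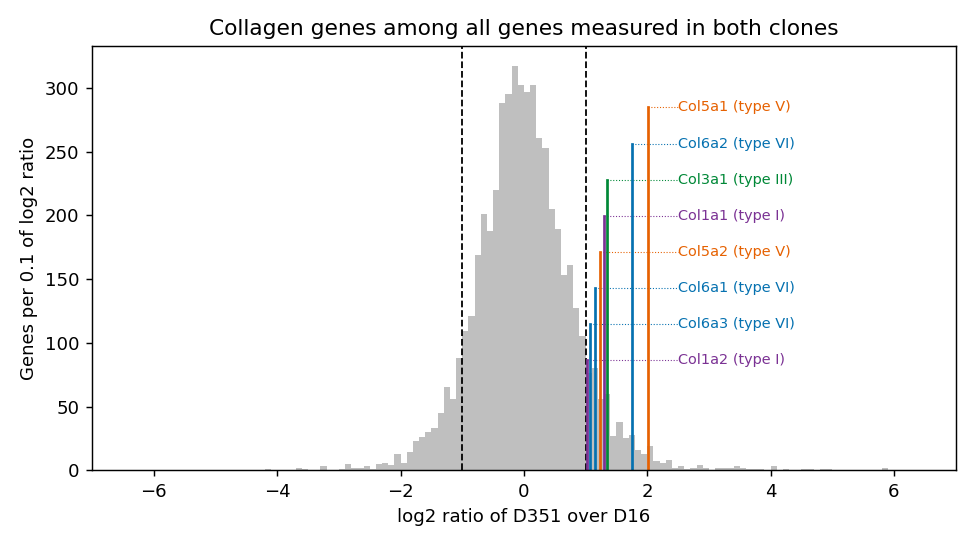
Histogram of the log2 ratio of D351 over D16 for the 5195 genes measured in both clones (grey, genes per 0.1), with the 8 collagen genes as coloured lines by collagen type (line heights only separate the labels). Dashed lines mark 2-fold either way. All 8 collagen genes lie to the right of the upper dashed line, from 1.02 (Col1a2) to 2.01 (Col5a1).

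Chains of one collagen type assemble together, so their ratios were also set against each other. In type I, the log2 ratio of Col1a1 exceeded that of Col1a2 by 0.27. In type V, that of Col5a1 exceeded that of Col5a2 by 0.78. In type VI, Col6a2 exceeded Col6a3 by 0.68, the difference of Col6a1 from Col6a2 was -0.59, and Col6a1 and Col6a3 were 0.08 apart. The 2 brightest probe sets of the same gene differed by a median of 0.39 over the 806 genes, and 19.9% of those pairs were at least as far apart as Col5a1 and Col5a2. The larger distances between chains are therefore of a size that also occurs between probe sets of a single gene.

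Several probe sets were available for 5 of the 8 genes. In 4 of these 5, all probe sets were higher in D351, and in 3 (Col3a1, Col5a1 and Col6a1) all were at least 2-fold higher. Among 68 other genes with several measured probe sets and a brightest one at least 2-fold higher in D351, all probe sets were higher there in 48 (70.6%) and all at least 2-fold higher in 21 (30.9%). Over the 14 collagen probe sets taken singly, 12 were at least 2-fold higher in D351, against 10.2% of 7333 named probe sets that reached the floor.

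Genes that neighbour the members on the chromosome showed no common direction. Col3a1 and Col5a2 are adjacent on chromosome 1, and Col6a1 and Col6a2 on chromosome 10, in each case with no protein-coding gene between them in the RefSeq annotation. The log2 ratios of the first pair were 0.11 apart, and in the second the difference of Col6a1 from Col6a2 was -0.59. Around all members, 36 other genes lay among the 3 nearest on each side on the array, and 24 of these were measured, with a median log2 ratio of -0.03. At 2-fold or more, 3 were higher in D351 and 2 in D16, where the shares among all genes were 10.6% and 8.84%. Array neighbours need not be adjacent on the chromosome: 11 protein-coding genes lie between Col1a1 and Chad, and 1 between Col1a2 and Sgce.

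The largest difference among these 24 was close to Col1a2. The first array gene past it, Sgce, the imprinted epsilon-sarcoglycan gene on chromosome 6, measured 18.2 in D16, near the floor, and 538 in D351, a log2 ratio of 4.89. On the other side of Col1a2, Gng11, a G protein gamma subunit gene, measured 31.1 and 80.5 (log2 ratio 1.37). Bet1, the gene directly before Col1a2, measured 29.2 and 44.7 (0.61). The imprinted gene Peg10, 2 array genes past Col1a2, was below the floor in both clones.

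Near the type VI genes, Slc19a1, the reduced folate carrier gene, measured 144 in D16 and 71.6 in D351 (log2 ratio -1.01). It lies between Col6a1 and Col18a1 in the array's gene order. Ackr3, a chemokine scavenger receptor gene near Col6a3, measured 60.03 in D16 and 19.1 in D351 (log2 ratio -1.65), with the D351 level near the floor.

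**Figure D3:**
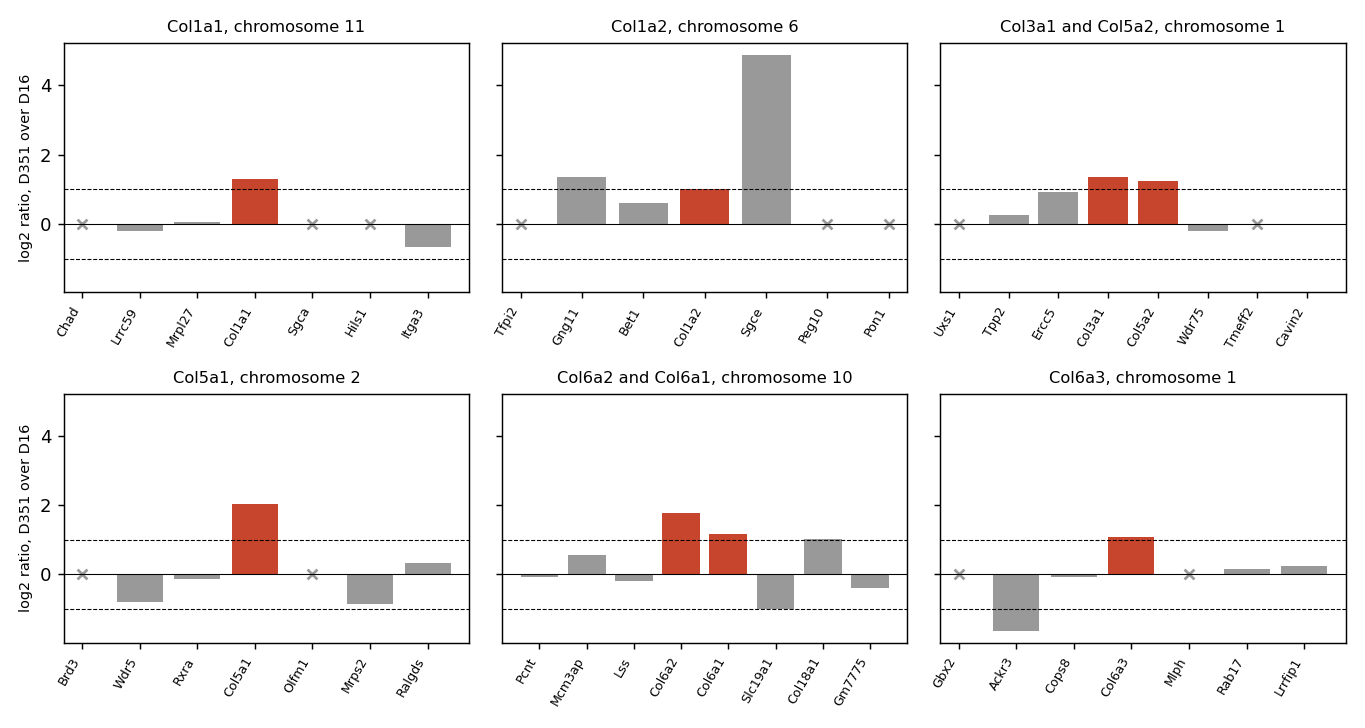
log2 ratio of D351 over D16 for the collagen genes (red) and up to 3 genes on each side that the array measures (grey), in chromosome order, in 6 panels. Crosses mark genes below the floor in both clones and dashed lines 2-fold either way. Sgce, the first array gene past Col1a2, reached 4.89. The genes on each side of Col5a1 that were measured lay between -0.86 (Mrps2) and 0.33 (Ralgds).

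With 2 arrays, likeness of pattern reduces to likeness of the log2 ratio. The genes nearest to the members' median of 1.27 were Tnfrsf1b, a TNF receptor, Ski, a repressor of SMAD signalling, Pros1, the anticoagulant protein S, the collagen gene Col4a1 and the kinase gene Map2k5. All 5 lay within 0.0037 of it on the log2 scale. As many as 111 genes lay within 0.1, so this likeness singles out no small set.

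Of the other collagen genes, 23 were on the array and 15 of these reached it in one clone or both. At least 2-fold higher in D351 were 5 of the 15 (33.3%, against 10.6% of all genes), and 0 in D16. The median log2 ratio of the 15 was 0.37. Col4a1 and Col4a2, the main chains of basement membrane collagen IV, measured 574 and 470 in D16 and 1376 and 1352 in D351, with log2 ratios of 1.26 and 1.53. Col8a1, a short-chain collagen of the vessel wall, measured 152 and 408 (log2 ratio 1.42). Col15a1, a collagen near basement membranes, did not reach the floor in D16 but measured 43.0 in D351, at least 2.46-fold higher. Col18a1, the endostatin precursor, measured 71.9 and 144 (2.01-fold), but its other measured probe sets gave 0.59, at least 0.45 and at most -0.25.

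The remaining 10 lay within 2-fold. Col11a1, another fibrillar chain, measured 70.3 in D16 and 90.8 in D351 (log2 ratio 0.37). Col7a1, the anchoring fibril collagen, measured 46.2 and 71.2 (0.63). Col4a5, Col9a2 and Col9a3 had log2 ratios of 0.05, 0.43 and -0.27. Col2a1, Col10a1, Col12a1, Col13a1 and Col26a1 were between 17.5 and 22.9 in D16 and below the floor in D351, so their ratios are bounds. The cartilage collagen genes Col2a1 and Col10a1 were thus at or barely above the floor, unlike all members.

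Genes that modify, fold and export procollagen were next compared. Of 24 listed, 15 were on the array, and all of them exceeded the floor on both arrays. Past 2-fold were 7 toward D351 (46.7%, against 10.6% of all genes) and 0 toward D16, with a median log2 ratio of 0.93. Creb3l1, a transcription factor of the endoplasmic reticulum that acts on collagen genes, measured 89.998 and 297 (3.30-fold higher in D351). P4ha1, the catalytic chain of prolyl 4-hydroxylase, measured 150 and 421 (2.81-fold). P3h3, of the prolyl 3-hydroxylase family, measured 80.5 and 215 (2.67-fold).

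Sec23a, a coat protein of the vesicles that carry procollagen out of the endoplasmic reticulum, measured 259 in D16 and 664 in D351 (2.57-fold), with a log2 ratio of 2.25 for its other probe set. Serpinh1, the collagen chaperone HSP47, named after its values were seen, measured 864 and 1853 (2.15-fold). Some general folding enzymes gave other values. P4hb, protein disulfide isomerase, measured 142 and 140, and the chaperone gene Hsp90b1 measured 1619 and 1490, both named after their values were seen. The P4hb values are from a set with the letter r, and its other probe set measured 25.2 and 25.9, near the floor. The list therefore held genes near the members' ratios beside genes near 0.

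Genes for cleavage of the propeptides and for cross-linking were fewer. Of 16 listed, 8 were on the array and 7 measured, with a median log2 ratio of 0.42. At least 2-fold higher in D351 were 2 (28.6%, against 10.6% of all genes), and 0 in D16. Tll1, a tolloid-like propeptidase, did not reach the floor in D16 but measured 88.4 in D351, at least 5.06-fold higher. Bmp1, the procollagen C-proteinase, measured 130 and 265 (log2 ratio 1.03), with 0.91 for its other probe set. Bmp1 passed 2-fold by a small margin and had 0.98 without further scaling. Lox, which cross-links collagen, measured 1246 and 1662 (0.42), and Pcolce, the enhancer of the C-proteinase, measured 1276 and 1634 (0.36), both named after their values were seen.

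Of 22 listed proteins that bind or border collagen fibrils, 14 were on the array and 10 measured, with a median log2 ratio of 1.08. At least 2-fold higher in D351 were 5 (50%, against 10.6% of all genes), and 0 in D16. Thbs2, a matricellular protein whose loss in mice disturbs collagen fibrils, did not reach the floor in D16 but measured 1120 in D351, at least 64.1-fold higher. Ogn and Lum, small leucine-rich proteoglycans, were 4.04-fold and 4.02-fold higher, Lum from only 23.4 in D16, little above the floor. Sparc, a collagen-binding protein, measured 636 and 2179 (3.42-fold). Postn, the matricellular protein periostin, named after its values were seen, was 2.94-fold higher in D351. Fn1, the fibronectin gene, named after its values were seen, measured 484 and 417 (log2 ratio -0.22).

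Of 16 listed collagen receptors, 9 were on the array and 8 measured, with a median log2 ratio of 0.24. The single gene at least 2-fold higher in D351 was Ddr2, a receptor tyrosine kinase for fibrillar collagens, which measured 104 and 340 (3.28-fold). This single gene made 12.5% of those measured, near the 10.6% of all genes. None was 2-fold higher in D16. Itgb1, the beta subunit shared by the collagen integrins, named after its values were seen, measured 1833 and 1854.

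Of 22 listed genes of collagen degradation and its inhibition, 19 were on the array and 11 measured, with a median log2 ratio of 0.60. At least 2-fold higher in D351 were 5 (45.5%, against 10.6% of all genes), and 0 in D16. Among them Timp2 and Reck, inhibitors of matrix metalloproteases, measured 52.5 and 64.0 in D16 and 226 and 189 in D351 (4.30-fold and 2.95-fold). The proteases Mmp11 and Mmp14, the latter a membrane-bound collagenase, were 3.66-fold and 2.31-fold higher. The collagenase genes Mmp8 and Mmp13 were below the floor in both clones, as was the gelatinase gene Mmp2, all named after their values were seen. Proteases and their inhibitors were thus both among the genes past 2-fold, but brighter genes of both kinds were not. The inhibitor Timp1 measured 2960 in D16 and 2427 in D351 (log2 ratio -0.29), and Timp3 974 and 954 (-0.03). The protease Ctsl measured 1246 and 845 (-0.56). These genes, too, were named after their values were seen.

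Of 45 listed regulators of collagen transcription, 40 were on the array and 35 measured, with a median log2 ratio of 0.08. At least 2-fold higher were 3 in D351 (8.57%) and 2 in D16, against 10.6% and 8.84% of all genes. The share toward D351 was thus no larger than among all genes. Ccn2, a TGF-beta target gene, measured 338 and 851 (log2 ratio 1.33), and Ski measured 160 and 384 (1.27). Prrx1, a mesenchymal homeobox gene, measured 30.9 and 71.3 (1.21). With the floor at the 60th percentile its log2 ratio was only bounded, at 0.42 or more. Nfyc, a subunit of the factor that binds CCAAT, measured 294 in D16 and 130 in D351 (-1.17), with at most -1.64 for its other probe set. The other subunits, Nfya and Nfyb, had log2 ratios of 0.05 and 0.59 and were named with their values known.

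**Figure D4:**
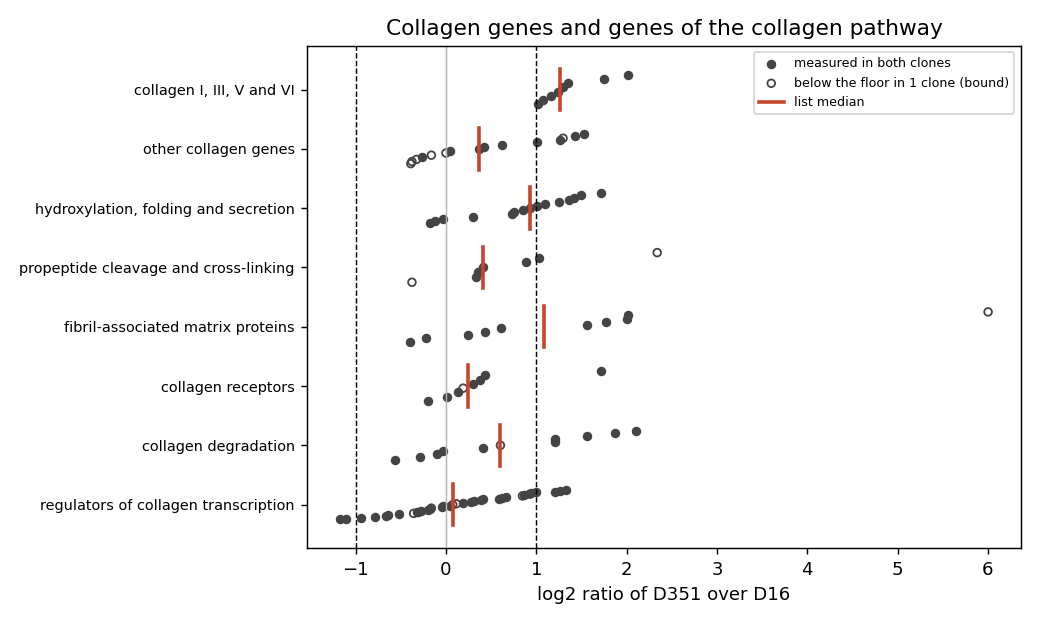
log2 ratio of D351 over D16 for each measured gene of the 8 collagen genes and 7 related lists, 1 point per gene. Open points are bounds for genes below the floor in 1 clone, red bars are medians and dashed lines mark 2-fold. The medians run from 0.08 for the regulators of transcription to 1.27 for collagen I, III, V and VI, and Thbs2 is the open point farthest to the right.

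Some lists share genes, such as Ddr2 and Prrx1. Markers of other cells are given here because the clones were started on fibroblasts. Of 11 embryonic fibroblast markers, 8 were measured, 2 of them at least 2-fold higher in D351 (Ddr2 and Prrx1) and 2 in D16. The shares among all genes were 10.6% and 8.84%. S100a4, which encodes a calcium-binding protein, had levels of 1834 in D16 and 414 in D351, and Prrx2, a homeobox gene, 442 and 215. The summed level of the 11 was 5334 in D16 and 3225 in D351, and Dpt, Fap and Tcf21 were below the floor in both. Bright genes weigh most in this sum, S100a4 foremost in D16, while Ddr2 and Prrx1 went the other way. The part of remaining fibroblasts in the collagen levels was not tested.

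Of 6 endothelial markers on the array, 1 was measured, Pecam1 (30.8 in D16 and 20.3 in D351). The 6 summed to 56.8 and 38.9. Of 8 haematopoietic markers, 4 were measured, and the 8 summed to 96.8 and 113, and the median log2 ratio of those measured was -0.15. Cd68 went from under the floor to 36.9, while Spi1, named after its values were seen, went from 26.6 to under the floor. Below it in both clones were Cdh5, Tek, Tie1, Vwf and Emcn among the endothelial genes and Ptprc, Itgam and Lyz2 among the haematopoietic ones, defining genes of those cells. Gata1 was below it in both by its brightest probe set, but another one measured 22.3 in D16. Of 5 mesoangioblast markers on the array, Kit and Kdr were below the floor in both clones. Cd34, a surface protein of vascular progenitors, measured 475 in D16 and was below the floor in D351, at least 27.2-fold higher in D16. Flt1, a VEGF receptor, measured 66.2 in D351 and was at least 3.78-fold higher there. Its other probe set gave a log2 ratio of at least 1.45. With the floor at the 60th percentile the bound for Flt1 fell to 0.31. Acta2, smooth muscle actin, named after its values were seen, measured 939 and 1686. The labelled cell type was therefore only partly reflected in these markers.

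Control probe sets describe RNA quality and hybridization. For Actb the 3′ signal over the 5′ signal was 1.81 in D16 and 1.37 in D351, and for Gapdh 1.56 and 1.44. Their part in the collagen ratios was not tested. The 9 hybridization controls were lower in D351, with a median log2 ratio of -0.44 on the deposited values. Scaling the arrays on them moved the median of all genes from -0.03 to 0.34 and the median of the 8 collagen genes from 1.27 to 1.66. Relative to all genes the collagen median was then 1.31, against 1.29 before. Of all genes past 2-fold, the share higher in D351 was then 83.0%, against 54.5% before.

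**Figure D5:**
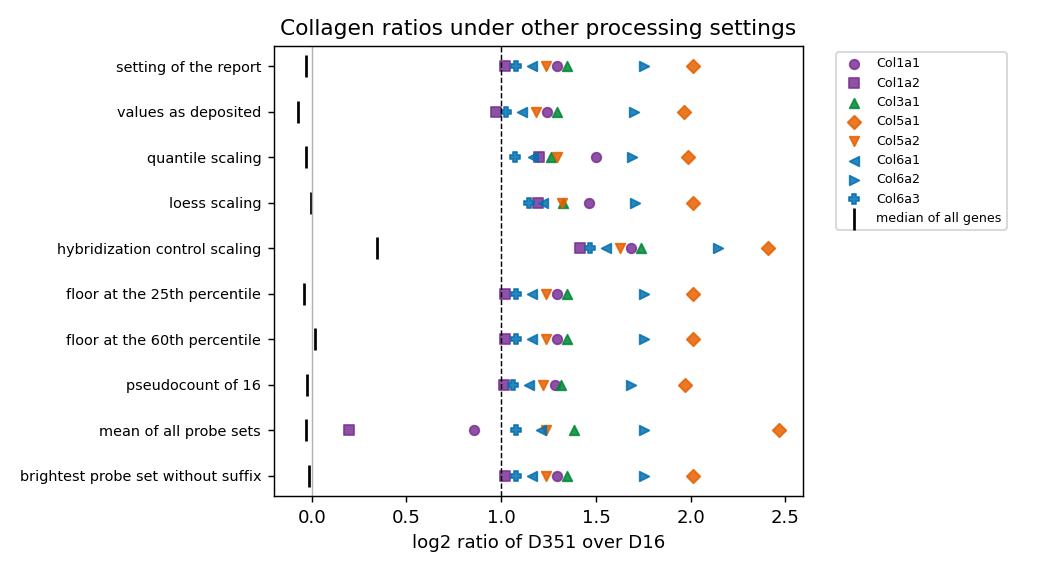
log2 ratio of D351 over D16 of each collagen gene (symbols, coloured by collagen type) and the median of all genes (black bars) under the setting of the report and 9 alternatives. The dashed line marks 2-fold. All symbols lie above 0, and those left of the dashed line are Col1a2 with the deposited values (0.97) and Col1a2 (0.20) and Col1a1 (0.85) with the mean of all probe sets.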

How the data were processed

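RNA of 2 clones was measured on 1 array each. The authors deposited 1 intensity value per probe set and array, on a linear scale. The software, background method and scaling used for them: not given in the sources used here. Both arrays had a trimmed mean (2% at each end) of 100.1. The number of arrays limits the precision.

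Probe sets were named through the platform annotation, and symbols were updated by Entrez number to RefSeq (GRCm38.p6). The labels write U74A, whereas that annotation is for version 2 of this array, and whether a probe set stands for the same gene in both versions was not checked. Of 12422 probe sets that are not controls, 10833 had 1 symbol, 396 several and 1193 none. Arrays were scaled to equal median log2 level over probe sets above the floor in both (factors 0.983 and 1.02). The floor was the mean of both arrays' 40th percentiles, and lower values were raised to it ahead of taking log2. List medians include such bounds. Each gene was represented by its brightest probe set, and a difference of 2-fold was counted. The functions were tested on simulated data with differences planted in genes well above the floor. The check of recovery covered only differences larger than any collagen ratio here. It therefore says nothing about calls close to 2-fold or genes near the floor.

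The members and gene lists were chosen with earlier results of these data known. Named besides the members were up to 4 genes per list with the largest ratio past 2-fold (otherwise up to 2), all other measured collagens, the 5 genes nearest in ratio and chromosomal neighbours. Listed genes without a probe set of their own symbol were not analysed here. Python 3.11.15, numpy 2.4.6, pandas 2.3.3, statsmodels 0.14.6 and matplotlib 3.10.9 were used.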

Additional observations from a re-analysis of the deposited data

How the results depend on the processing

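No paired analysis was possible because either clone had a single array, which also left no replicate to leave out. Under 9 alternatives of scaling, floor and probe set rule, 71 of 72 values for the 8 collagen genes moved by less than the spread between probe sets (0.52). The exception was Col1a2 with the mean of all probe sets (0.20), which its opposite probe set produces, and no value of a member changed sign. Many of these values had little or no room to move. Both other floors and the rule without suffixed probe sets left each member ratio unchanged. The deposited values and the hybridization controls shifted all 8 by a common amount. The mean of probe sets cannot move a gene with a single one. The count of 71 is therefore no measure of robustness. The median of the 8 genes lay between 1.21 (values as deposited) and 1.66 (hybridization controls), and 6 to 8 passed 2-fold. At 3-fold 2 of the 8 passed (4.15% of all genes) and at 4-fold 1 (2.28%), while at 1.5-fold all 8 did (21.1%).

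For all genes, the numbers at least 2-fold higher in D351 and D16 were 1209 and 247 with scaling on the hybridization controls, and 406 and 324 with the floor at the 60th percentile. With the floor at the 25th percentile, 852 were higher in D16, and the median of the fibril-associated list was 0.43, since genes near the floor entered. In that setting 2 receptors and 5 regulators were at least 2-fold higher in D351, as were 11.9% of all genes. With the hybridization controls this held for 11 genes of hydroxylation, folding and secretion, for 10 regulators and for 19.9% of all genes. The cleavage and cross-linking list had 1 such gene in place of 2 with the values as deposited, quantile scaling, loess scaling, the floor at the 60th percentile, the pseudocount of 16 and the mean of all probe sets. Of 126 list values, 115 stayed within 0.52 (medians) or 1.5 times (gene counts) of the value reported. Of 459 log2 ratios for 51 other named genes, 430 stayed within 0.52, the rest having moved further. Genes near a ratio of 0 changed sign in 2 cases, Col9a3 from -0.27 to 0.12 with the hybridization controls and Col4a5 from 0.05 to -0.01 with the values as deposited. The cause of these shifts was not tested. Signal over background limits the genes near the floor, whose sizes depend on where the floor is set. Among them are Tll1, Lum, Col15a1, Sgce, Ackr3, Prrx1 and Flt1.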
